A study of Homo sapiens with 6 samples.

Results

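Transcript levels of 10 genes of the Wnt pathway were examined in MDA-MB-231/RR cells, the radioresistant form of MDA-MB-231, an established human triple-negative breast cancer line. The genes were DKK1, WNT5A, WNT5B, WNT7B, LRP5, LRP6, CTNNB1, AXIN1, AXIN2 and TCF7L2. They were found by symbol among the 46427 genes of the deposited gene table, and all 10 passed the filter that left 16557 genes for testing. RNA had been sequenced from 3 control samples and from 3 samples co-treated with ortho-topolin riboside (oTR), a cytokinin riboside of plant origin, and melatonin. All samples came from this single line, grown in serum-containing medium, and the labels name no vehicle for the controls. The sources used here state neither dose nor duration of treatment. The series was designed to ask whether the combination alters the transcriptome. The series held no samples given either compound alone, so effects of oTR, of melatonin and of their combination cannot be told apart.

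In the canonical Wnt pathway a secreted lipid-modified Wnt ligand binds a Frizzled receptor and an LRP5 or LRP6 co-receptor. This stops a destruction complex built on the axin scaffolds from marking beta-catenin, the product of CTNNB1, for degradation, and beta-catenin then acts in the nucleus with TCF/LEF factors such as TCF7L2. DKK1, dickkopf 1, is a secreted inhibitor that binds LRP5 and LRP6, and both DKK1 and AXIN2 are known transcriptional targets of beta-catenin that feed back on the pathway. WNT5A and WNT5B are best known for beta-catenin-independent signalling through ROR and RYK receptors.

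Promoter sequence was read from a RefSeq table on GRCh38.p14, in which 7 of the 10 genes had 11 annotated starts. The window was the 250 bases upstream of each start. DKK1 is shown because it is a textbook TCF target with 1 annotated transcript. WNT5A is shown at both of its tabulated starts because its reads were spread over transcripts with different starts. LRP5 is shown because its gene total was lower in co-treated cells. Capitals mark the TCF/LEF cores CTTTGA and CTTTGT and the TATA motif TATAAA, each searched on both strands. The sequences run 5′ to 3′ on the gene's strand.
DKK1, chr10:52314031-52314280, plus strand: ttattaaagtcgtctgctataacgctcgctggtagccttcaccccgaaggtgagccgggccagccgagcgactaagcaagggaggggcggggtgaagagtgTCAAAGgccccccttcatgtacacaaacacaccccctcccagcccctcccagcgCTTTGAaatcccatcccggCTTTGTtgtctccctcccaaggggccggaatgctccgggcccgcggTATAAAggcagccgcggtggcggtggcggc
WNT5A, upstream start, chr3:55487307-55487556, minus strand: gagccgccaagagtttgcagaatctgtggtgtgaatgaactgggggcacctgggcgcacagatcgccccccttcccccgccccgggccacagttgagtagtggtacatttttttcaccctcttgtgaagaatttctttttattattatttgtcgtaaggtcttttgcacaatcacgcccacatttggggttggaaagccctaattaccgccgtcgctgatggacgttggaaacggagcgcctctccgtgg
WNT5A, downstream start, chr3:55481399-55481648, minus strand: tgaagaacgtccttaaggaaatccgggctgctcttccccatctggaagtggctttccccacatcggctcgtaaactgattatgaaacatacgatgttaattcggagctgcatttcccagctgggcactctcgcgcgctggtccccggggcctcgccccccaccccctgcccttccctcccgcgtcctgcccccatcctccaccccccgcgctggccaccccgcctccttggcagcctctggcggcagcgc
LRP5, chr11:68312341-68312590, plus strand: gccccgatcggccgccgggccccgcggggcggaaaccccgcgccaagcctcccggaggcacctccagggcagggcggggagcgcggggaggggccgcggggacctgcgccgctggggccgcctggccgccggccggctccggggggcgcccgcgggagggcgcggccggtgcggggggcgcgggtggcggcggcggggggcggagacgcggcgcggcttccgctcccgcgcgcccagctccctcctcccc
The DKK1 window held CTTTGA on the opposite strand 149 bases before the start and on the gene's strand 95 bases before it. It also held CTTTGT 76 bases and TATAAA 30 bases before the start. A TCF/LEF core of either spelling occurred in 22.8% of 35116 windows of this length, and TATAAA in 10.7%. Of the 11 windows of these genes, 2 held a core, that of DKK1 and an internal start of TCF7L2 to which at most 0.289% of the gene's TPM was assigned. No match was found in the windows of WNT5A and LRP5, which says only that these letters are absent from them.

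CPM (estimated counts scaled to library size and composition) are used below for differences between groups, and TPM (scaled to transcript length and library) for levels between genes. Of the 10 genes, WNT5A was higher in co-treated cells and WNT7B, LRP5 and CTNNB1 were lower (edgeR quasi-likelihood test, Benjamini-Hochberg over all genes tested, threshold 0.05). DKK1, WNT5B, LRP6, AXIN1, AXIN2 and TCF7L2 did not pass. Over all genes tested, 33.7% were called, 16.6% higher and 17.1% lower, so 4 called of 10 lies near the background. The median log2 fold change of the 10 was 0.01, against 0.00 for all genes. The control and co-treated ranges did not overlap for 5 of the 10, 1 higher and 4 lower, against 47.4% of all genes, 23.3% higher and 24.1% lower. The gene counts behind these values ranged from 298 for AXIN2 to 45232 for CTNNB1 in a library.

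**Figure D1:**
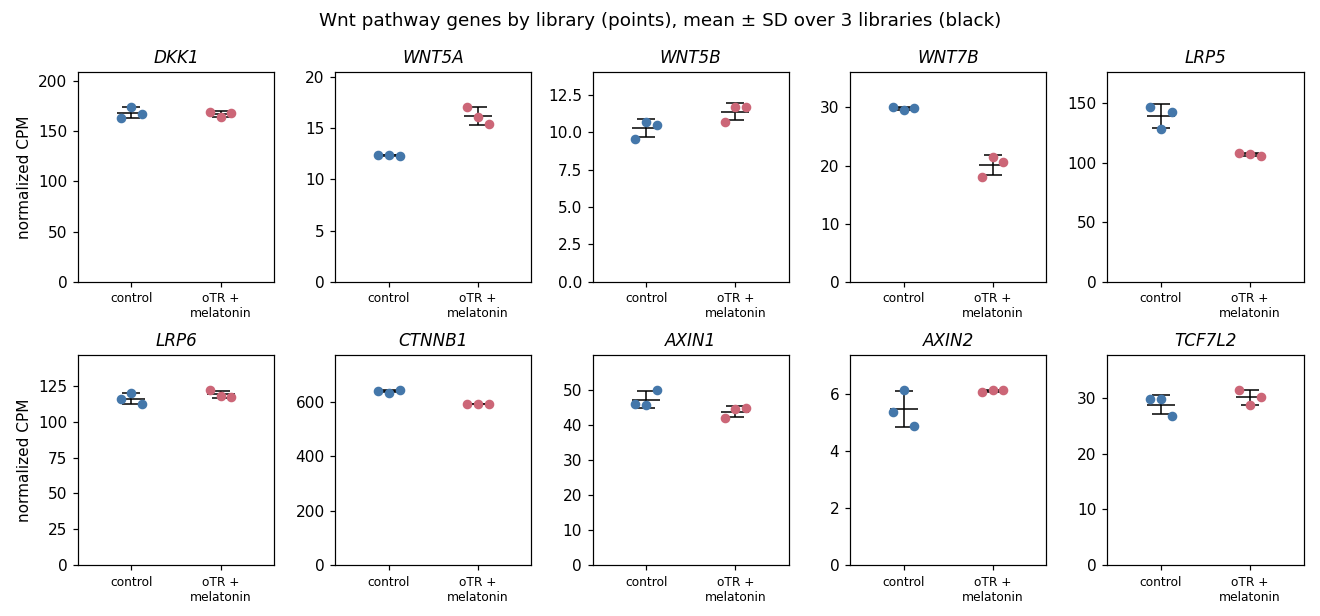
Normalized CPM of the 10 Wnt pathway genes (vertical axes, each from 0) in 3 control and 3 co-treated libraries. Points are libraries and black bars are the mean and SD. WNT7B and LRP5 sat lower and WNT5A higher in every co-treated library, while the DKK1 points of both groups lay between 163 and 174.

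In control cells the order of the levels, in TPM (mean ± SD, n = 3), was led by CTNNB1 at 398 ± 5.25 and DKK1 at 197 ± 8.12. LRP5 followed at 57.0 ± 4, AXIN1 at 27.6 ± 0.726 and LRP6 at 24.6 ± 0.878. WNT7B at 16.0 ± 0.367 and TCF7L2 at 15.3 ± 1.23 had overlapping ranges and could not be ordered. Below them came WNT5B, WNT5A and AXIN2, at 8.62 ± 0.972, 4.48 ± 0.0789 and 2.78 ± 0.347 TPM. With DKK1 ranked 740th among all genes by mean control TPM, the secreted inhibitor was far more abundant than any Wnt ligand in these cells. In co-treated cells the order was the same except among genes of middle level. There AXIN1 and LRP6 overlapped, at 27.4 to 28.7 and 26.4 to 29.0 TPM, and TCF7L2, at 16.7 to 18.6 TPM, lay above WNT7B, at 10.9 to 12.5 TPM. Cultures of this kind are measured in bulk, so fewer cells of a type and less RNA per cell cannot be told apart.

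DKK1 (gene ID 22943, chromosome 10, 52314281 to 52317657 on GRCh38) stayed within a narrow band. Its normalized CPM was 163, 174 and 167 in control replicates 1, 2 and 3, and 169, 164 and 168 in the co-treated replicates. The co-treated values all lay inside the control range. The log2 fold change was -0.01 ± 0.04 (SE; 95% interval -0.10 to 0.09; edgeR adjusted p = 0.912). In TPM the DKK1 groups did not overlap, at 191 to 206 in controls and 211 to 221 after co-treatment, a log2 difference of 0.12 (limma on log2(TPM + 1), adjusted p = 0.0537), where the median of all genes lay at 0.09. The sign of this small difference therefore depends on the scale. The 3 genes whose profile over the 6 libraries was most like that of DKK1 were THRAP3, USP32 and TAF8, with Euclidean distances of 0.0321, 0.0327 and 0.0334 between centred log2 CPM values, against a median of 0.258 over 9655 genes. Their log2 fold changes, -0.03, -0.01 and 0.01, follow from that choice.

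Other secreted modulators were scarce. The list of secreted inhibitors, R-spondins and other secreted modulators held 19 genes, DKK1 included. Of these, 14 were too low to test and 8 of the 14 were listed at 0 in every library. The 5 tested included DKK1. DKK3, a divergent member of the dickkopf family, was the only called gene of the 5 tested (20% called, against 33.7% of all genes). It measured 2.40, 2.44 and 2.42 CPM in controls and 1.01, 1.16 and 1.36 CPM after co-treatment. All co-treated values lay below all control values, and DKK3 fell by 1.03 in log2 terms (SE 0.16; edgeR adjusted p = 0.000634). NOTUM, a secreted deacylase that inactivates Wnt ligands, had a log2 fold change of -0.89 at at most 26 counts in a library (edgeR adjusted p = 0.147).

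Among the Wnt ligand genes, WNT7B fell and WNT5A rose. The summed level of the 19 ligand genes was 43.9, 45.0 and 45.5 TPM in controls and 42.0, 44.9 and 45.0 TPM after co-treatment, with overlapping ranges. WNT7B, which signals through beta-catenin in several epithelia (gene ID 7477, chromosome 22, 45920362 to 45977162), was the most abundant ligand in controls. It measured 30.1, 29.6 and 29.9 CPM in controls and 18.1, 21.4 and 20.6 CPM in co-treated cells. No co-treated library reached the lowest control. WNT7B fell by 0.58 ± 0.07 on the log2 scale (SE; 95% interval -0.72 to -0.43; edgeR adjusted p = 0.000144).

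WNT5A (gene ID 7474, chromosome 3, 55465715 to 55505261) moved the other way. It measured 12.4, 12.4 and 12.3 CPM in controls and 17.1, 16.1 and 15.4 CPM in co-treated cells, again without overlap. WNT5A rose by 0.39 ± 0.07 on the log2 scale (SE; 95% interval 0.25 to 0.54; edgeR adjusted p = 0.00127), a 1.31-fold difference. Its close relative WNT5B (gene ID 81029, chromosome 12, 1529856 to 1647213) ranged from 9.58 to 10.7 CPM in controls and from 10.7 to 11.7 CPM after co-treatment. That log2 fold change of 0.15 ± 0.08 did not pass (95% interval -0.02 to 0.32; edgeR adjusted p = 0.167). Called and not called among these paralogs was not tested as a difference between them.

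As a share of summed ligand TPM, WNT7B went from 37.4%, 35.7% and 34.4% in the controls to 25.8%, 27.9% and 26.4%. The share of WNT5A went from 10.3%, 10.1% and 9.65% to 16.5%, 14.3% and 13.3%. That of WNT5B went from 17.4%, 19.1% and 21.1% to 22.4%, 22.5% and 22.2%. None of the 3 shares overlapped between groups. With 3 libraries against 3 the smallest exact two-sided permutation p is 0.1, which all 3 reached (adjusted p = 0.12 over 6 shares), so no share could pass the threshold. Taking estimated counts in place of TPM, the difference in the WNT5A share was 7.02 percentage points instead of 4.68, in the same direction.

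**Figure D2:**
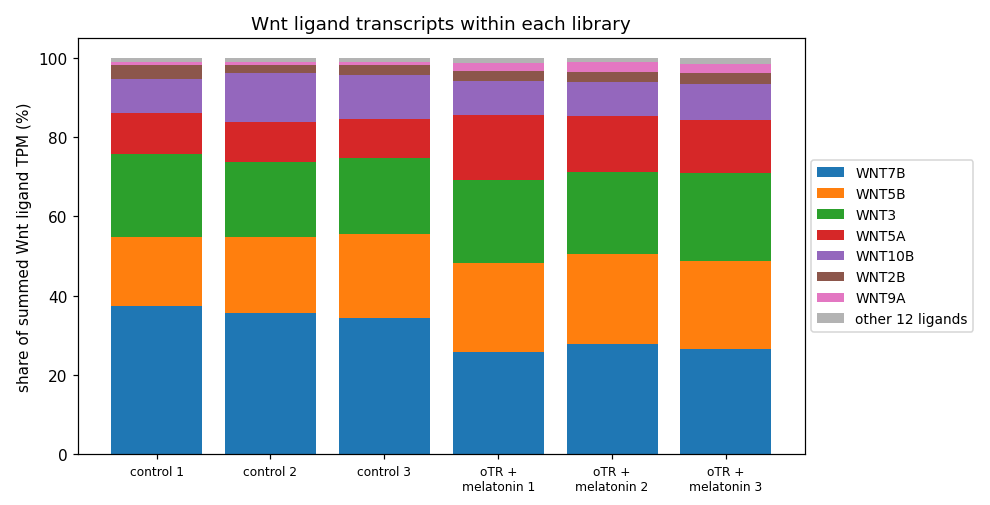
Share of summed Wnt ligand TPM (vertical axis, %) held by each ligand in the 3 control and 3 co-treated libraries (bars). The WNT7B segment takes 34.4% to 37.4% in controls and 25.8% to 27.9% after co-treatment, and the WNT5A segment widens from 9.65% to 10.3% up to 13.3% to 16.5%.

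Among the other ligands, 10 of 19 were too low to test and 8 of these were listed at 0 in every library. WNT9A rose from 0.761 ± 0.0967 to 1.71 ± 0.213 CPM (SD, n = 3), or by 1.18 in log2 terms (SE 0.19; edgeR adjusted p = 0.00087). WNT10B fell from 5.24 ± 1.03 to 3.83 ± 0.393 CPM (edgeR adjusted p = 0.0341), with overlapping groups. WNT10B did not pass with control replicate 2 left out (edgeR adjusted p = 0.135), nor with control replicate 3 (0.101), co-treated replicate 1 (0.1) or 2 (0.0818) left out. WNT3, a canonical ligand, held 18.8% to 22.3% of ligand TPM, with a log2 fold change of -0.04 (edgeR adjusted p = 0.754). For the secretion machinery, the Wnt carrier gene WLS had a log2 fold change of -0.11 (edgeR adjusted p = 0.0946) with groups that did not overlap, and PORCN, the Wnt acyltransferase, one of 0.12 (0.5).

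Of the co-receptor genes, LRP5 was called lower and LRP6 was not called. LRP5 (gene ID 4041, chromosome 11, 68298866 to 68449275) measured 147, 128 and 143 CPM in controls and 108, 107 and 106 CPM in co-treated cells. The co-treated libraries lay close together and below every control. LRP5 fell by 0.38 ± 0.05 on the log2 scale (SE; 95% interval -0.50 to -0.26; edgeR adjusted p = 0.000465). LRP6 (gene ID 4040, chromosome 12, 12116025 to 12267044) measured 112 to 120 CPM in controls and 117 to 122 CPM after co-treatment, a log2 fold change of 0.04 ± 0.04 that did not pass (95% interval -0.06 to 0.13; edgeR adjusted p = 0.566). Within each library, LRP6 made up 28.7%, 32.6% and 29.3% of the summed LRP5 and LRP6 TPM in controls and 36.9%, 37.7% and 36.2% after co-treatment. These shares did not overlap (exact permutation p = 0.1, the smallest possible, so the difference between the co-receptors could not pass; adjusted p = 0.12).

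LRP6 has the longest transcripts of the 10 genes, with a TPM-weighted mean of 9917 bases, and its sign depended on how length was treated. Over all genes, the median log2 fold change rose with transcript length, from -0.11 among the shortest of 4 equal length classes (median 1125 bases) to 0.10 among the longest (median 6417 bases). With this trend removed, LRP6 stood at -0.09 (edgeR adjusted p = 0.0943). On the log2(TPM + 1) scale it was called higher, at 0.18 (limma adjusted p = 0.037), where the median of all genes lay at 0.09. WNT5A, WNT7B and LRP5 kept their direction and call under both of these settings, at 0.31, -0.61 and -0.45 with the trend removed.

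**Figure D3:**
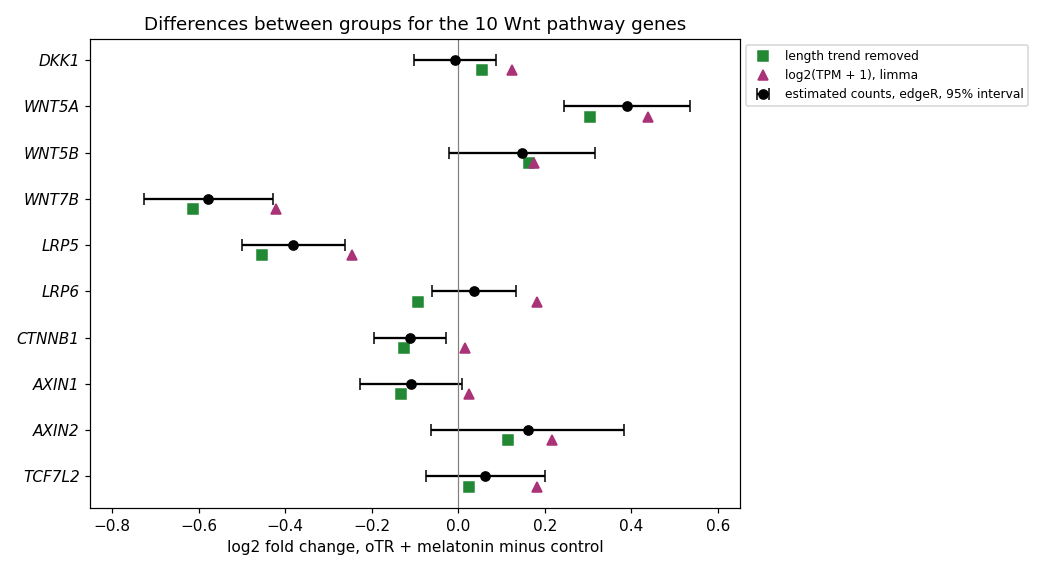
Log2 fold change of co-treated against control cells (horizontal axis) for the 10 genes. Black points and bars are edgeR estimates on counts with 95% intervals, squares the same fit with the length trend removed and triangles limma on log2(TPM + 1). WNT5A, WNT7B and LRP5 lie clear of 0 for every symbol, and the symbols of DKK1, LRP6, CTNNB1 and AXIN1 fall on both sides of 0.

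Of 23 receptor and co-receptor genes, 20 were tested, 6 rose and 3 fell (45.0% called, against 33.7% of all genes). LGR4, an R-spondin receptor, rose from 21.2 ± 0.331 to 28.4 ± 2.00 CPM (SD, n = 3; edgeR adjusted p = 0.000663). KREMEN2, which binds dickkopf proteins together with LRP6, rose from 1.10 ± 0.174 to 1.81 ± 0.337 CPM (edgeR adjusted p = 0.0146). With control replicate 3 or co-treated replicate 3 left out, KREMEN2 did not pass (0.056 and 0.0727). Without co-treated replicate 3, 3 receptor genes rose in place of 6, and with the length trend removed 5 fell in place of 3. The Frizzled genes FZD1, FZD4, FZD6 and FZD9 were the other four that rose, and FZD9 was the largest of them at 0.79 on the log2 scale (edgeR adjusted p = 0.0199). FZD9 missed the threshold in each of 4 fits, those leaving out control replicate 1 (0.0605) or 2 (0.063) and co-treated replicate 2 (0.0594) or 3 (0.0669). FZD2 fell from 38.5 ± 2.03 to 30.1 ± 2.40 CPM (edgeR adjusted p = 0.00246), and was not called on the unfiltered log2(TPM + 1) scale, at -0.21 (limma adjusted p = 0.0888). LGR6, another R-spondin receptor at under 1 CPM, was also called lower (edgeR adjusted p = 0.0434). It lay below the level set for naming and was added after its value was seen, as were FZD1, FZD4 and FZD6, which were smaller changes.

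CTNNB1 (gene ID 1499, chromosome 3, 41199422 to 41240445) was the most abundant of the 10 and changed least among those called. It measured 641, 634 and 643 CPM in controls and 591, 592 and 592 CPM in co-treated cells. The groups were separate and each was tight. CTNNB1 fell by 0.11 ± 0.04 on the log2 scale (SE; 95% interval -0.19 to -0.03; edgeR adjusted p = 0.0405), a 0.926-fold level. CTNNB1 missed the threshold in 5 of the 6 fits that left out a library, with edgeR adjusted p = 0.12 and 0.102 when that was control replicate 1 or 3, and 0.065, 0.0821 and 0.114 when it was co-treated replicate 1, 2 or 3. With library size alone it was -0.05 (0.287), where the median of all genes lay at 0.06. On the log2(TPM + 1) scale CTNNB1 stood at 0.02 (limma adjusted p = 0.765), where that median lay at 0.09. Its levels were 392 to 402 TPM in controls and 397 to 412 TPM after co-treatment.

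The axin scaffolds, which hold the destruction complex together, did not pass. AXIN1 (gene ID 8312, chromosome 16, 287440 to 355226) measured 45.7 to 49.9 CPM in controls and 42.0 to 44.8 CPM after co-treatment. The groups were separate, with a log2 fold change of -0.11 ± 0.05 (SE; 95% interval -0.23 to 0.01; edgeR adjusted p = 0.144). AXIN2 (gene ID 8313, chromosome 17, 65528563 to 65561648), the inducible scaffold used as a readout of beta-catenin activity, measured 5.37, 6.14 and 4.88 CPM in controls and 6.08, 6.14 and 6.13 CPM after co-treatment. The co-treated libraries agreed closely and matched the highest control, control replicate 2. The log2 fold change of AXIN2 was 0.16 ± 0.10 (SE; 95% interval -0.06 to 0.38; edgeR adjusted p = 0.25). Without control replicate 2 it was 0.25 (0.0838), and without control replicate 3 it was 0.08 (0.604). AXIN2 made up 7.82% to 10.3% of the summed axin TPM in controls and 10.5% to 11% after co-treatment (exact permutation p = 0.1, the smallest possible). The difference of 1.57 percentage points was 0.915 without control replicate 3.

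Of the 23 genes of the cytoplasmic relay and destruction complex, all tested, 6 rose and CTNNB1 and AMER1 fell. At 34.8% called, this list lies at the share of all genes, 33.7%. GSK3B, the kinase that phosphorylates beta-catenin, rose from 77.5 ± 1.61 to 93.7 ± 3.99 CPM (SD, n = 3; edgeR adjusted p = 0.00134). TNKS, a tankyrase that promotes turnover of axin, rose from 19.3 ± 0.156 to 24.6 ± 1.88 CPM (0.0023). BTRC, an F-box protein that recognises phosphorylated beta-catenin, rose from 57.1 ± 1.13 to 65.8 ± 1.70 CPM (0.00533). AMER1, a membrane-associated scaffold for APC, fell from 13.0 ± 0.401 to 10.6 ± 0.347 CPM (0.0071), a call lost on the log2(TPM + 1) scale (limma adjusted p = 0.243). The smaller rises were those of TNKS2, FBXW11 and USP34. With the length trend removed 3 genes of this list rose in place of 6, and on the log2(TPM + 1) scale 11 rose and 0 fell.

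TCF7L2 (gene ID 6934, chromosome 10, 112950247 to 113167678), the DNA-binding partner of beta-catenin, measured 26.8 to 29.8 CPM in controls and 28.8 to 31.4 CPM after co-treatment. The ranges overlapped, and the log2 fold change was 0.06 ± 0.06 (SE; 95% interval -0.07 to 0.20; edgeR adjusted p = 0.472). TCF7L2 held 55.8% ± 1.54 of the summed TPM of the 4 TCF/LEF genes in controls and 58.7% ± 1.54 after co-treatment (SD, n = 3; exact permutation p = 0.2). The other three, TCF7, TCF7L1 and LEF1, did not pass either, with log2 fold changes of -0.21, -0.08 and -0.11 (edgeR adjusted p = 0.1, 0.638 and 0.389).

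Of 18 nuclear factors, 17 were tested, 1 rose and 4 fell (29.4% called, against 33.7% of all genes). PYGO2, a co-activator that reads histone methylation beside beta-catenin, rose from 45.4 ± 1.05 to 56.6 ± 3.40 CPM (SD, n = 3; edgeR adjusted p = 0.0012). Its partner BCL9L and the acetyltransferase gene CREBBP fell by 0.18 and 0.20 on the log2 scale (edgeR adjusted p = 0.00487 and 0.00365). The TLE family genes TLE2 and TLE5 fell by 0.42 and 0.23 (0.00865 and 0.0155). TLE5 missed the threshold with control replicate 3 (0.0602) or co-treated replicate 3 (0.0528) left out. For CREBBP, TLE2 and TLE5 the call was also lost on the log2(TPM + 1) scale, at -0.08, -0.21 and -0.10 (limma adjusted p = 0.195, 0.0785 and 0.194), where 0 of the nuclear factors fell.

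Of 26 known beta-catenin target genes, 21 were tested, 4 rose and 4 fell, with a median log2 fold change of -0.07. The share called, 38.1%, lies near that of all genes, 33.7%. The falls were those of the growth factor gene VEGFA and the transcription factor genes MYC, FOSL1 and JUN. VEGFA fell from 48.2 ± 2.51 to 27.5 ± 0.843 CPM and FOSL1 from 254 ± 5.41 to 190 ± 8.08 CPM (SD, n = 3; edgeR adjusted p = 7.64e-06 and 0.000102). The rises were those of EPHB3, TNFRSF19, BMP4 and the cyclin gene CCND1. Whether beta-catenin had a part in the falls or the rises was not tested. BMP4, a morphogen, rose from 12.4 ± 0.539 to 16.6 ± 0.542 CPM (edgeR adjusted p = 0.000857) and EPHB3, an ephrin receptor, from 1.48 ± 0.228 to 2.40 ± 0.294 CPM (0.00773). TNFRSF19 (0.0341) missed the threshold with control replicate 1 or 3 left out (0.104 and 0.105), and with co-treated replicate 1 or 2 left out (0.0761 and 0.122). The list had 2 rises in place of 4 in each of 3 fits, those leaving out control replicate 1 or 3 or co-treated replicate 1. Neither DKK1 nor AXIN2 was among the called targets. The zinc finger gene SP5 had a log2 fold change of -0.16 (edgeR adjusted p = 0.354).

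**Figure D4:**
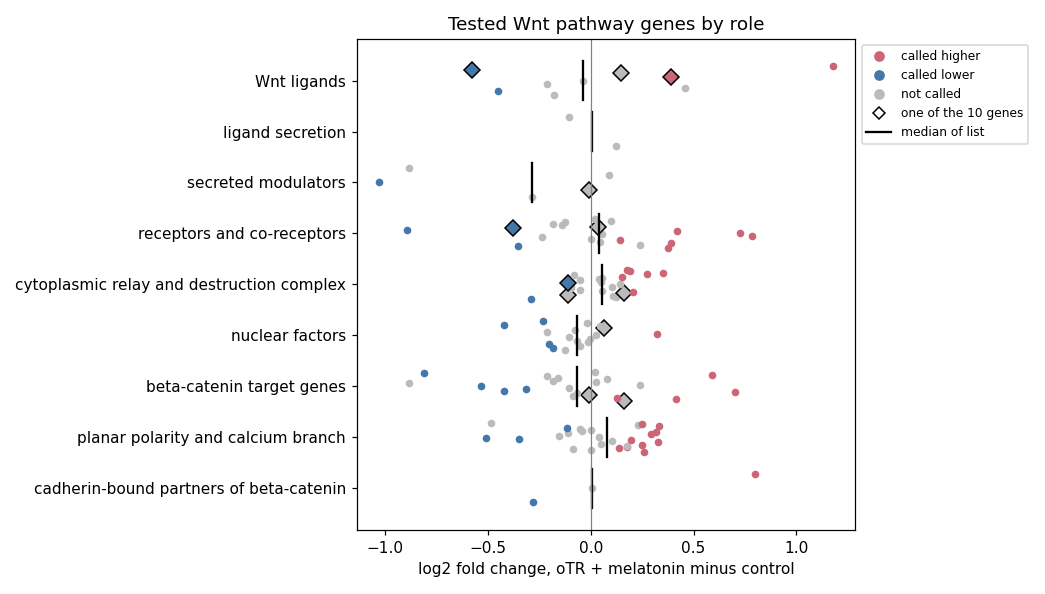
Log2 fold change of co-treated against control cells (horizontal axis) for each tested gene of 9 role lists (rows). Diamonds are DKK1 and the other 9 genes of the set, circles the other pathway genes, colours the edgeR call, and black lines the list medians. Rises and falls stand side by side in most rows, and list medians lie between -0.28 and 0.08.

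The planar polarity and calcium branch, through which WNT5A is known to act, had 10 rises and 3 falls among 26 genes, all tested (50% called, against 33.7% of all genes, 16.6% higher and 17.1% lower). Without co-treated replicate 1, or without co-treated replicate 2, 6 rose, and with the length trend removed 4 rose and 6 fell. On the log2(TPM + 1) scale 1 fell in place of 3. INVS, which encodes inversin, rose from 16.5 ± 0.387 to 20.7 ± 0.120 CPM (SD, n = 3; edgeR adjusted p = 0.00161). PRICKLE2, a core polarity gene, rose by 0.32 on the log2 scale (0.0111), and with the length trend removed stood at 0.19 (0.0555). The transcription factor genes NFATC2 and NFATC1 fell by 0.51 and 0.35 (0.000122 and 0.00488), and NFATC1 lost its call on the log2(TPM + 1) scale (limma adjusted p = 0.1). RHOA had a log2 fold change of -0.12 (0.0454), but missed the threshold in 5 fits with a library left out, at 0.136, 0.0727 and 0.079 for control replicates 1, 2 and 3, and at 0.139 and 0.126 for co-treated replicates 2 and 3. The receptor genes ROR1 and RYK had log2 fold changes of -0.13 and 0.10 that did not pass (edgeR adjusted p = 0.124 and 0.134).

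Of 5 genes for cadherins and cadherin-bound partners of beta-catenin, 3 were tested, 1 rose and 1 fell (66.7% called, against 33.7% of all genes). The cadherin genes CDH1 and CDH2 were too low to test, at no more than 5 and 6 counts in a library. CTNND1 had a log2 fold change of 0.01 (edgeR adjusted p = 0.907). JUP encodes plakoglobin, the close relative of beta-catenin at junctions. It measured 37.4, 36.6 and 36.9 CPM in controls and 61.7, 69.5 and 62.0 CPM after co-treatment. The groups were widely separated, and JUP rose by 0.80 in log2 terms (SE 0.06; edgeR adjusted p = 7.69e-06). CTNNA1, alpha-catenin, which links cadherin complexes to actin, fell from 687 ± 23.0 to 565 ± 12.5 CPM (edgeR adjusted p = 0.000646). On the unfiltered log2(TPM + 1) scale CTNNA1 was not called, at -0.15 (limma adjusted p = 0.0744).

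Across the 153 pathway genes of these lists, 8 of them in a pair of lists, 119 were tested, 30 rose and 20 fell. The share called was 42.0%, against 33.7% of all genes. The split of directions moved with the scaling. With the length trend removed 20 rose and 28 fell, with library size alone 37 rose and 16 fell, and on the log2(TPM + 1) scale 43 rose and 10 fell, so no direction is given for the pathway as a whole.

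The transcript table gave 1 transcript for DKK1 and up to 17 for TCF7L2. Transcript usage could be tested for 7 of the 10 genes, and none was called (limma diffSplice, 3.01% of 9961 genes called). At an unadjusted p under 0.05 there was 1, LRP5 (adjusted p = 0.0768), and edgeR's diffSpliceDGE called none of the 7. LRP5 variant 1 held 92.1%, 68.9% and 97.1% of the gene's TPM in controls and 66.8%, 84.1% and 71.9% after co-treatment. Variant X2 held 3.73%, 19.8% and 0% and then 27.4%, 13.7% and 23.6%, and in both variants control replicate 2 lay within the co-treated range. Without control replicate 1, AXIN2 was called (adjusted p = 0.0344). In that library variant 2 took 94.7% of AXIN2, against 25.8% and 49.7% in the other controls. CTNNB1 variant 3 held 33.4%, 38.2% and 37.1% in controls and 27.3%, 27.5% and 27.9% after co-treatment, without overlap (limma adjusted p = 0.678 for this transcript, where 0.683% of transcripts were called).

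For the ligands the assignment to transcripts was unstable. WNT5A variant 1, which begins at the upstream start shown above, held 98.6%, 97.4% and 69.4% of WNT5A TPM in controls and 86.3%, 53.8% and 85.6% after co-treatment. Variant 4, which begins at neither start shown, held 0%, 0.818% and 18.9% and then 11.6%, 39.9% and 3.12%. Transcripts of the downstream start took at most 5.47%. All WNT5B signal was assigned to variant X2 (2678 bases) in 5 libraries and to variant X6 (2251 bases) in control replicate 3. A shorter transcript gives a higher TPM for the same count, and this library had the highest control WNT5B value in TPM, 9.60, but not in CPM, 10.5.

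The 6 libraries held 50569611 to 72309015 estimated counts. The mesenchymal marker VIM stood at 2040 to 2690 TPM. Of 7 luminal markers, ESR1, PGR, CDH1 and EPCAM were under 1 TPM in every library, GATA3 stood at 3.01 to 4.65, FOXA1 at 1.72 to 3.46 and KRT8 at 603 to 724 TPM (summed level 610 to 670 TPM in controls and 610 to 730 after co-treatment). Between groups, FOXA1 was called higher and GATA3, EPCAM, CAV1 and COL1A1 lower, with log2 fold changes of 0.64, -0.49, -1.33, -0.22 and -0.32, and their part in the results above was not tested. Of 7 fibroblast markers, 6 were under 1 TPM in every library (summed level 7.45 to 9.36 TPM in controls and 7.05 to 7.51 after co-treatment, nearly all COL1A1). Of 5 leukocyte markers, 4 were under 1 TPM (summed level 32.1 to 33.3 and 30.6 to 38 TPM, nearly all CD68), with PTPRC at 0. Whether the 3 samples per group came from separate cultures is not said in the labels. The p-values therefore reflect the spread among these samples only, which may be technical.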

How the data were processed

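RNA sequencing covered 3 control and 3 co-treated samples of MDA-MB-231/RR. Groups and replicate numbers come from the sample titles. Columns starting with Con were taken as control, and those starting with Mo as melatonin plus oTR. Per the submitters' processing notes, the tools were StringTie 2.1.3b, HISAT2 2.1.0, SAMtools 1.9, Trimmomatic 0.38 and Bowtie2, on GRCh38, with no roles stated. The authors deposited, per gene and per transcript, estimated counts as whole numbers, FPKM and TPM, per the file headers. FPKM was not used. Transcript lengths are those in the deposited transcript table. No source used here states whether counting used strand, and reads of overlapping or antisense genes cannot be told apart.

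Genes were filtered with filterByExpr (minimum count 10) and tested with edgeR 4.0.16 in R 4.3.3 (quasi-likelihood, relative log expression factors, which the labels name), with Benjamini-Hochberg adjustment over 16557 genes. CPM is normalized with the same factors. Transcript usage was tested with diffSplice of limma 3.58.1 after voom. Shares within gene families were compared by exact two-sided permutation. No pair of replicates agreed within sampling noise (chi-square divided by its degrees of freedom, 10.8 to 18.0). Gene and usage tests were tested on simulated data. Alternatives were TMM factors, library size with and without the 20 most abundant genes, DESeq2 1.42.0, voom, other count filters, log2 TPM scales with pseudocounts of 1 and 0.1, the replicate block, each library left out, and a lowess length trend (span 0.3) removed. Named pathway genes were up to 3 called rises and 3 called falls per list, by size, at 1 CPM or more. A gene that this rule named is not reported here. Named transcripts held at least 10% of a gene's TPM in a group. Genes like DKK1 needed 10 CPM. The genes and lists were chosen with earlier results of these data known. Figures were drawn with matplotlib 3.10.9.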

Additional observations from a re-analysis of the deposited data

How the results depend on the processing

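WNT5A, WNT7B and LRP5 kept their direction and call in all 18 alternatives, with log2 fold changes of 0.31 to 0.51, -0.62 to -0.42 and -0.45 to -0.24. WNT5B, AXIN2 and TCF7L2 kept their sign in all 18 and were called in none. CTNNB1 was called in 7 of 18. DKK1 changed sign, never with a call, with library size alone (0.051) or without the 20 most abundant genes (0.042), without control replicate 2 or co-treated replicate 2 (0.016 and 0.005, in a range of -0.03 to 0.016 over left-out libraries), with the length trend removed (0.054), and on the log2(TPM + 1), log2(TPM + 0.1) and unfiltered log2(TPM + 1) scales (0.124, 0.125 and 0.124). On these 3 TPM settings CTNNB1 (0.016, 0.016 and 0.016), AXIN1 (0.025, 0.026 and 0.025) and RHOA (0.014, 0.014 and 0.014) also changed sign, uncalled. LRP6 changed sign with the length trend removed (-0.092). The cause was not tested. The median of all genes lay at 0.09, 0.12 and 0.03 on the log2(TPM + 1), log2(TPM + 0.1) and unfiltered log2(TPM + 1) scales. Relative to that median, CTNNB1 stood at -0.075, -0.108 and -0.012, AXIN1 at -0.066, -0.098 and -0.003, and DKK1 at 0.033, 0.001 and 0.096.

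Higher calls among the 10 genes were 2 in place of 1 on log2(TPM + 1) and 2 on log2(TPM + 0.1), the addition being LRP6. Over all genes, 4516 and 4490 rose on these scales in place of 2743. Falls over all genes were 1339 and 1338, and 968 without a filter, in place of 2835, and falls among pathway genes 10, 10 and 8 in place of 20. Genes called for transcript usage were 108 with diffSpliceDGE in place of 300. Leaving out 1 library gave 0 to 1 of the 10 genes called for usage.

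Samples with the same number showed little shared deviation (r = 0.07, 0 and -0.04). With 3 samples per group this cannot decide whether the numbers pair them. With the replicate block 6367 genes were called in place of 5578, 33 pathway genes rose and 21 fell, and the 4 calls among the 10 genes were the same. Not every sample correlated best with its own number.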
